A study of Mus musculus with 6 samples.

Results

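Splicing regulators of striated muscle, namely Rbm20, Rbm24, Celf1, Celf2, Mbnl1, Mbnl2, Rbfox1, Rbfox2, Clk1 and Srsf5, were followed in RNAseq of mouse hearts. They were chosen by name, and each was matched by its Ensembl identifier, so that all 10 members were found among the 16018 genes listed and all 10 were tested. The hearts came from 3 female NBCe1-B/C KO mice (KO) and 3 female wild-type mice (WT), all 4 to 5 weeks old and on a C57BL/6J background, as offspring of heterozygous parents. NBCe1 is the sodium bicarbonate cotransporter encoded by Slc4a4, and the KO lacks its B and C variants constitutively in every tissue, while the A variant is left. The libraries were made from total RNA, extracted with a micro column kit, and read as pairs of 150 bases. The labels name no treatment of either group. The whole heart was labelled as the tissue, so that a lower number of cells of one type cannot be told apart from less RNA per cell.

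Pre-mRNA splicing joins the exons of a transcript, and muscle uses many exons that other tissues skip. RBM20, RBM24, CELF, MBNL and RBFOX proteins bind short motifs in or beside such exons and promote their inclusion or skipping, and CELF and MBNL proteins are known for opposing each other as the heart matures. SR proteins such as SRSF5 recruit the splicing machinery to exons, and CLK kinases phosphorylate SR proteins. The values below are counts summed over a whole gene, so that they give the amount of each regulator's transcript and not the splicing of any exon.

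The recovered reads on genes ran from 41364857 to 49100802 per library, and each KO library was deeper than each WT library. Slc4a4 was listed at 264, 945 and 269 normalized counts in KO replicates 1, 2 and 3, against 675, 822 and 789 in the WT replicates. Thus, the library labelled KO replicate 2 went against its label, since it was above every WT library, and the log2 fold change of Slc4a4 was -0.90 with it and -1.51 without it. It is kept below as labelled, and values without it stand beside the results that rest on it. Cardiomyocyte markers such as Myh6 and Actc1 were abundant in every library. The summed level of the 9 markers was 2.97e+06 to 3.33e+06 normalized counts in KO and 2.69e+06 to 2.78e+06 in WT libraries. Myh6 alone averaged 1.16e+06 in KO and 792350 in WT. By limma log2 fold change, 4 of the 9 markers were higher in KO and 5 lower. Every KO library was above every WT library for Myh6 and Mybpc3, and below for Tnni3, Myl2 and Myl3. The part of the difference in summed level in the results on the members was not tested.

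In GENCODE M21 (GRCm38), Rbm20 (ENSMUSG00000043639) lies at chr19:53677306-53867080 with 3 annotated transcripts, and Rbm24 (ENSMUSG00000038132) at chr13:46418434-46431095 with 5. Celf1 (ENSMUSG00000005506) and Celf2 (ENSMUSG00000002107) are both on chromosome 2, at chr2:90940382-91019497 and chr2:6539694-7509563, with 14 and 28 transcripts. Mbnl1 (ENSMUSG00000027763) lies at chr3:60472830-60629750 and Mbnl2 (ENSMUSG00000022139) at chr14:120275669-120431697, with 25 and 10 transcripts. The members with the most annotated transcripts, Celf2 and Mbnl1, are thus those where a sum over the gene covers the most forms.

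Rbfox1 (ENSMUSG00000008658) lies at chr16:5885355-7411526 and Rbfox2 (ENSMUSG00000033565) at chr15:77078990-77307004, with 8 and 15 transcripts. Clk1 (ENSMUSG00000026034) lies at chr1:58410189-58424066, and of its 13 annotated transcripts 1 is protein-coding, 7 retain an intron and 2 are marked for nonsense-mediated decay. Srsf5 (ENSMUSG00000021134) lies at chr12:80945504-80950507, with 12 transcripts of which 5 are protein-coding and 3 retain an intron. Retained introns are a known means of control of both CLK kinases and SR proteins, and the counts for Clk1 and Srsf5 do not separate the coding from the retained forms.

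Because 3 of the families hold close relatives, the sequences that could blur their counts were examined first. In the mouse transcripts of GENCODE M21 (GRCm38), the longest identical stretch was 23 bases between Celf1 and Celf2, 26 between Mbnl1 and Mbnl2 and 29 between Rbfox1 and Rbfox2. All of these lie in coding sequence and are far shorter than the 150 bases of a read. They stand in capitals here with 15 bases on each side in lower case, on the strand of the transcript. The Celf1 stretch lies within chr2:91012812-91013259 (plus strand) and that of Celf2 within chr2:6547192-6549862 (minus strand). The Mbnl1 stretch lies within chr3:60529802-60595646 (plus) and that of Mbnl2 within chr14:120325410-120379202 (plus), while that of Rbfox1 lies within chr16:7292236-7294086 (plus) and that of Rbfox2 within chr15:77102923-77105618 (minus). Each range crosses at least 1 intron.
Celf1: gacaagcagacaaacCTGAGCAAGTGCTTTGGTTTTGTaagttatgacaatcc
Celf2: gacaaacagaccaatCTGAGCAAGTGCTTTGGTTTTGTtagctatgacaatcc
Mbnl1: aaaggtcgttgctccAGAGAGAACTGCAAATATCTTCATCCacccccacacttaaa
Mbnl2: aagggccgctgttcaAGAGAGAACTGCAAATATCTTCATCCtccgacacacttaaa
Rbfox1: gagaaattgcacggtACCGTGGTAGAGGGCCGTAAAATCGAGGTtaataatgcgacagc
Rbfox2: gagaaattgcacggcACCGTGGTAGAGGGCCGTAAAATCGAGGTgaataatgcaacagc

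These lines show the most similar stretch of each pair, and bases differ on both sides of the capitals. Clk1 and its relative Clk4 shared a longer stretch of 49 bases, and no window of 50 bases was common to the 2 genes of any of the 4 pairs. No read of 150 bases could therefore match annotated transcripts of both relatives exactly, whereas the rule by which shared reads were counted is not given in the sources used here. Antisense and overlapping genes cannot be separated without the strand setting, which is likewise not given.

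Promoter sequence was taken from RefSeq for GRCm38.p6 as the 250 bases before each start site, and was held for 7 of the 10 members in 13 windows, with none for Rbm20, Rbfox2 and Clk1. The windows of Rbfox1, Mbnl2 and Celf1 are shown because these members were among those higher in KO libraries. Capitals mark matches to 5 motifs, each searched on both strands. The GC box, GGGCGG, and the CCAAT box are common to many promoters. The TATA box was searched as TATAAA, as letters near a start site. The GATA motif, AGATAA, is bound by the GATA factors of the heart. The MEF2 core, CTANNNNTAG, is bound by MEF2 factors of muscle. The Rbfox1 windows are chr16:5884543-5884792 and chr16:7069585-7069834, that of Mbnl2 is chr14:120275419-120275668 and that of Celf1 is chr2:90940147-90940396, all on the plus strand.
Rbfox1 first start: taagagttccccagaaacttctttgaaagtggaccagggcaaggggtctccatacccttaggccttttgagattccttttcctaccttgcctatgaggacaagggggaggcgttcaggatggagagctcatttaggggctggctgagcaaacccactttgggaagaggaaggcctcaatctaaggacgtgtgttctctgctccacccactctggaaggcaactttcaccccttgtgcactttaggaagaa
Rbfox1 second start: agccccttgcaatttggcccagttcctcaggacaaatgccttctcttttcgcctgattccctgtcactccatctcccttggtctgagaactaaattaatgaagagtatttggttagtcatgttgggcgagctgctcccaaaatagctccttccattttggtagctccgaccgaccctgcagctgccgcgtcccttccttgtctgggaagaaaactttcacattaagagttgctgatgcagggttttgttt
Mbnl2: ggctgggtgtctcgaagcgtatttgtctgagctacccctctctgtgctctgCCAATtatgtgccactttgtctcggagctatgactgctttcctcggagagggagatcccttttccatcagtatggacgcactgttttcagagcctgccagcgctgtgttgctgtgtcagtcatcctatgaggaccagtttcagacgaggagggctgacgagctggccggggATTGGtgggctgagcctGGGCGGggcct
Celf1: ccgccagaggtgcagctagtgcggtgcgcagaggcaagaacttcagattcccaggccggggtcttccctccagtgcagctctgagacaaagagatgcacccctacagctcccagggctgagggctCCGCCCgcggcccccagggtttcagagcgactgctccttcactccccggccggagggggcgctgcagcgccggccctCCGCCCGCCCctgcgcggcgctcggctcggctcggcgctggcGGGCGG

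The starts of Rbfox1 lie 1185 kb apart, and counts summed over the gene do not separate them. Neither Rbfox1 window held any of these 5 motifs, whereas the Mbnl2 window held 1 GC box and 2 CCAAT boxes, and the Celf1 window held 4 GC boxes, of which a pair overlapped. Over all 32851 promoter windows of this length, 32.7% held a GC box, 33.9% a CCAAT box, 12.4% a TATA box, 9.99% a GATA motif and 3.20% a MEF2 core. Of the 13 windows of the members, 6 held a GC box, 2 a CCAAT box, 2 a TATA box, 1 a GATA motif and 0 a MEF2 core, although 1 pair of the 5 Celf2 windows overlapped. An E-box (CANNTG), which is not marked and can overlap the other motifs, stood in 8 of them and in 66.2% of all windows. The Rbfox1 windows had 51.2% and 48.4% G and C, those of Mbnl2 and Celf1 57.2% and 72.4%, and the median of all windows was 52.4%. A match to such letters is a description of the sequence and not evidence of binding.

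The level of each member in WT hearts, given as normalized counts per kilobase of merged exons, differed widely between members. Srsf5 was the most abundant at 2235 ± 154 (SD, n = 3), followed by Rbm24 at 1879 ± 128 and Rbm20, the muscle regulator known for titin splicing, at 1292 ± 39.2. The WT values of these 3 members did not overlap. Rbfox2 at 538 ± 6.82, Mbnl2 at 507 ± 34.1 and Celf1 at 479 ± 14.1 formed a middle group in which neighbours overlapped. Rbfox1 followed at 367 ± 31.6. Mbnl1 at 243 ± 10.8 and Clk1 at 238 ± 30.5 overlapped as well, and Celf2 was the lowest at 61.8 ± 3.68. The same order held in KO hearts except that Mbnl2 at 642 ± 95.3 stood before Rbfox2 at 639 ± 22.2. Merged exons are much longer than any one transcript in some members, and per kilobase of the longest coding transcript Mbnl2 (1335 ± 89.8), Clk1 (1077 ± 138) and Mbnl1 (804 ± 35.6) all stood above Rbfox2 (634 ± 8.04).

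**Figure D1:**
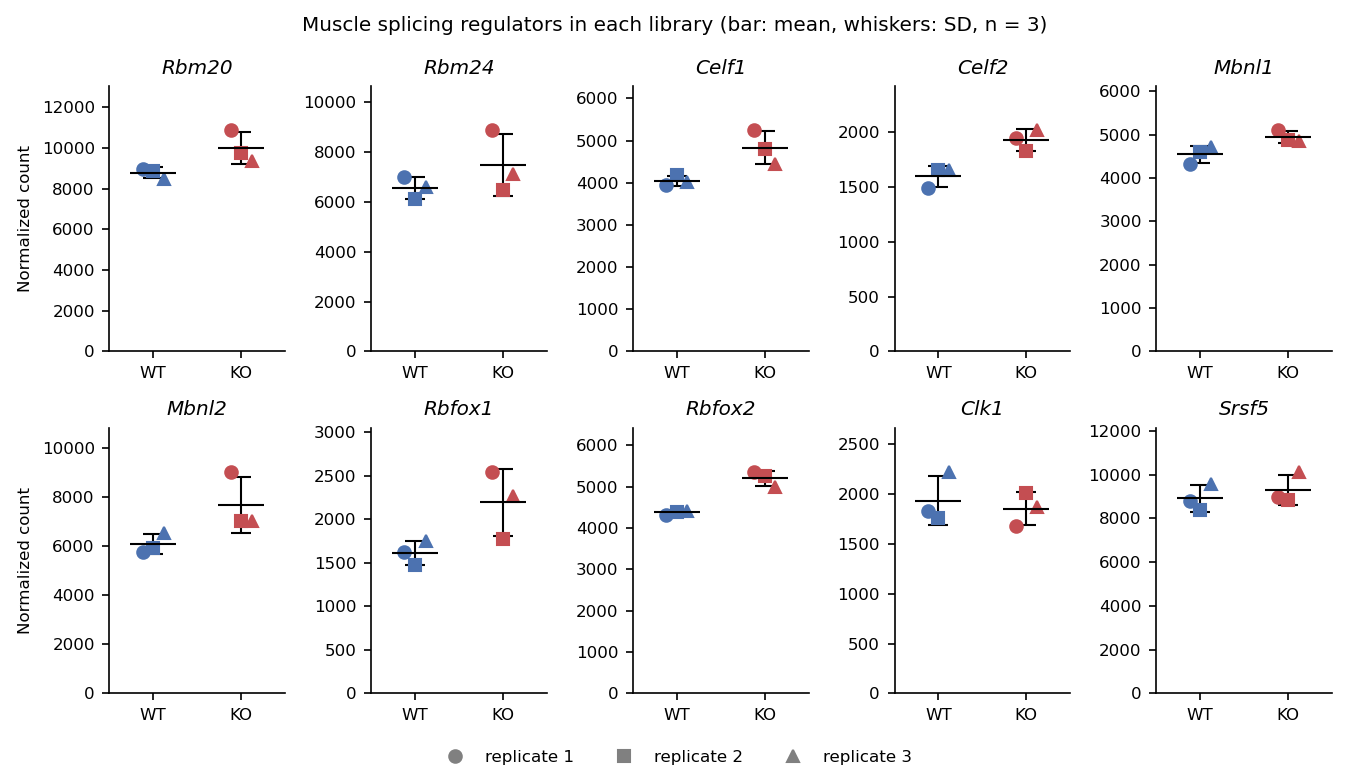
Normalized counts (vertical axes, from 0) of the 10 members in each of the 3 WT (blue) and 3 KO (red) libraries, with marker shapes for the replicate number, a bar for the mean and whiskers for the SD. All KO points lie above all WT points for 7 members, and the groups overlap for Rbm24, Clk1 and Srsf5.

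RBFOX proteins bind a motif in introns beside the exons they regulate and act in heart, skeletal muscle and brain. Rbfox1 had 2539, 1773 and 2264 normalized counts in KO replicates 1, 2 and 3, and 1619, 1473 and 1751 in the WT replicates. Every KO library was above every WT library, but the library labelled KO replicate 2 only just cleared WT replicate 3, and the KO mean was 1.36 times the WT mean. This was the highest log2 fold change of the members, at 0.43 (SE 0.13, limma, Benjamini-Hochberg adjusted p = 0.107). Without the library labelled KO replicate 2 it was 0.57, with a limma adjusted p of 0.128. Markers of neurons and Schwann cells, of which neurons are known to express Rbfox1, summed to 349 to 813 normalized counts in KO and 484 to 755 in WT libraries, 1 of 8 was higher in KO, and Elavl4 was not listed. That summed level overlapped between the groups.

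Rbfox2, the more widely expressed relative, had 5351, 5255 and 5001 normalized counts in the KO libraries and 4316, 4393 and 4424 in the WT libraries. The groups were well apart, since the lowest KO library exceeded the highest WT library by more than the range within either group, and the coefficients of variation were 3.48% in KO and 1.27% in WT. The log2 fold change was 0.25 (SE 0.06, limma adjusted p = 0.0815), the lowest adjusted p of the members.

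CELF proteins bind GU-rich sequence and are known to favour fetal splice forms in the heart. Celf1 had 5246, 4803 and 4450 normalized counts in KO and 3947, 4179 and 4018 in WT, with all KO above all WT libraries and a log2 fold change of 0.25 (SE 0.07, limma adjusted p = 0.1004). Celf2, the less abundant member, had 1945, 1824 and 2017 in KO and 1488, 1654 and 1653 in WT, again without overlap, and a log2 fold change of 0.27 (SE 0.07, limma adjusted p = 0.0933). The KO means were 1.19 and 1.21 times the WT means, respectively.

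MBNL proteins are known to favour adult splice forms and are bound by the expanded repeats of myotonic dystrophy. Mbnl1 had 5099, 4881 and 4840 normalized counts in KO and 4324, 4593 and 4719 in WT libraries. The groups were only just apart, and the log2 fold change was 0.12 (SE 0.06, limma adjusted p = 0.269). Mbnl2 had 9016, 7043 and 7033 in KO and 5776, 5909 and 6541 in WT, where KO replicate 1 stood far above the other KO libraries. Its log2 fold change was 0.33 (SE 0.10, limma adjusted p = 0.114) and lay between 0.21 and 0.39 when each library was left out in turn, 0.21 being the value without KO replicate 1.

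RBM20 and RBM24 are regulators of sarcomere transcripts in the heart and skeletal muscle. Rbm20 had 10862, 9735 and 9372 normalized counts in KO and 8981, 8863 and 8472 in WT. All KO libraries were above all WT libraries, and the log2 fold change was 0.19 (SE 0.07, limma adjusted p = 0.167). Rbm24 had 8865, 6464 and 7117 in KO and 6986, 6095 and 6600 in WT. Here the groups overlapped, because the library labelled KO replicate 2 was below 2 of the WT libraries, and the log2 fold change of 0.18 (SE 0.11, limma adjusted p = 0.374) became 0.05 without KO replicate 1 and 0.28 without KO replicate 2.

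The SR protein and its kinase showed smaller differences. Srsf5 had 8964, 8833 and 10114 normalized counts in KO and 8798, 8367 and 9580 in WT, with overlapping groups and a log2 fold change of 0.06 (SE 0.08, limma adjusted p = 0.682) that was -0.01 after each library was rescaled to the same total. Clk1 had 1679, 2013 and 1871 in KO and 1827, 1760 and 2219 in WT, and its log2 fold change of -0.06 (SE 0.10, limma adjusted p = 0.781) turned to 0.01 without KO replicate 1 and to 0.04 without WT replicate 3.

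The limma test called 0 of the 10 members and 0% of the 16016 genes tested at an adjusted p of 0.05. At an unadjusted p under 0.05 it gave 6 members and 3764 genes, edgeR on the recovered reads called 0 genes, and DESeq2 on the same reads called 1587. The 5 members called by DESeq2 were Rbfox2, Rbfox1, Mbnl2, Celf2 and Celf1, all higher in KO, with adjusted p-values of 0.00960, 0.0125, 0.0228, 0.0313 and 0.0313. Of all genes with a DESeq2 adjusted p, 8.22% were called higher in KO and 5.03% lower. Without the library labelled KO replicate 2, DESeq2 called 4 members, all of the above but Celf1, beside 7.16% of genes called higher. An exact two-sided permutation test over 3 against 3 libraries cannot go below p = 0.1, the value reached by the 7 members whose groups did not overlap.

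In those 7 members (Rbm20, Celf1, Celf2, Mbnl1, Mbnl2, Rbfox1 and Rbfox2) every KO library was above every WT library, and in none was every KO library below. Over all genes tested, the share with every KO library above was 15.6%, and the share with every KO library below was 14.6%. The members' median log2 fold change was 0.22, whereas the median of all genes was -0.0043. Ranked among all genes tested, the log2 fold change of Rbfox1 was above that of 95.1% of genes, that of Mbnl2 above 91.1%, that of Celf2 above 86.6% and that of Clk1 above 41.6%. The coefficient of variation between animals was higher in KO for 7 members and lower for Celf2, Mbnl1 and Clk1. It ran from 2.82% (Mbnl1) to 17.7% (Rbfox1) in KO and from 1.27% (Rbfox2) to 12.8% (Clk1) in WT. KO replicate 1 was the highest library for 7 of the 10 members and WT replicate 1 the lowest for 5, and the count of 7 became 7 or 8 when any one library was left out, with 18.2% to 21.7% of all genes above in the same way.

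**Figure D2:**
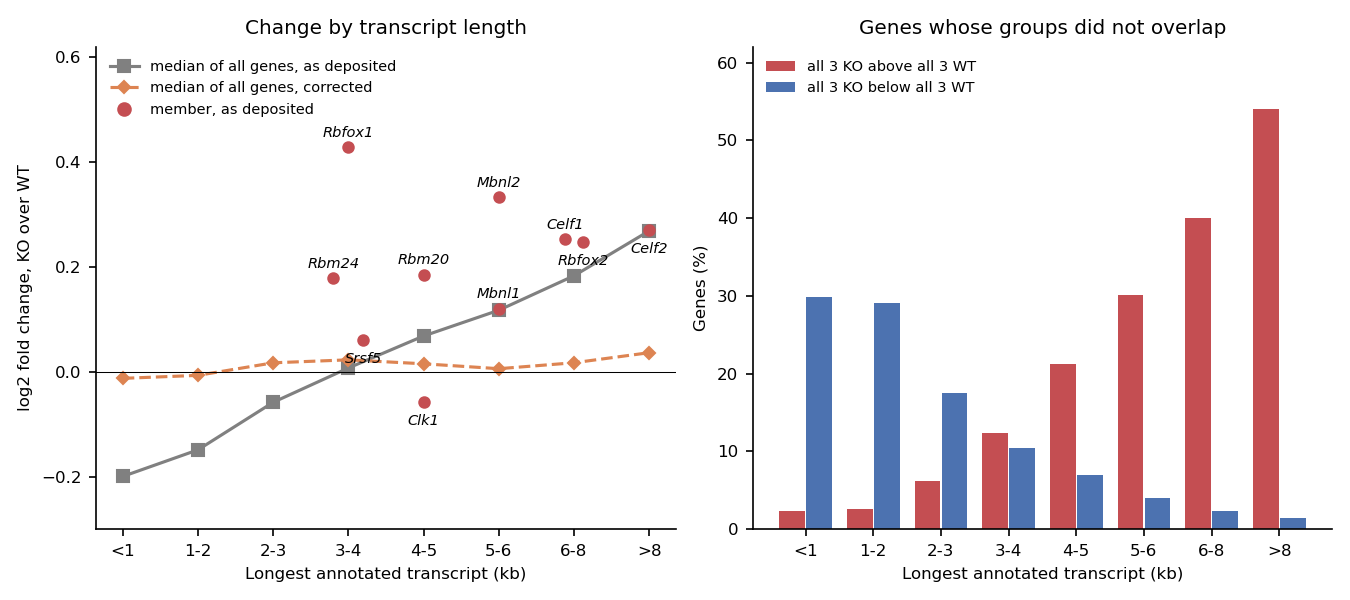
Left, median log2 fold change of all genes in 8 ranges of transcript length as deposited (grey) and after correction (orange), with the members as red points at their own value and length range. Right, percent of genes in each range whose 3 KO libraries were all above (red) or all below (blue) the 3 WT libraries. The grey line climbs from -0.20 to 0.27, and Celf2 and Mbnl1 lie on it while Rbfox1 lies at 0.43 in a range whose median is 0.01.

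Transcript length moved with the difference between the genotypes. The members' median longest transcript was 5227 bases against 3188 for all genes tested, although Rbm24, at 3086, and Rbfox1, at 3061, were below the latter. In the range of 6000 to 8000 bases, which holds Celf1 and Rbfox2, 40% of all genes had every KO library above every WT library and the median log2 fold change was 0.18. Above 8000 bases, which holds Celf2, the share was 54.1% and the median 0.27, equal to the value of Celf2 itself at 2 decimals. For Mbnl1 and Mbnl2, at 5000 to 6000 bases, the share was 30.1% and the median 0.12, so that Mbnl1 was at its range's median and Mbnl2, at 0.33, was above it. Rbm20 and Clk1, at 4000 to 5000 bases, belong to a range with a median of 0.07. Rbfox1, Rbm24 and Srsf5 are shorter, at 3000 to 4000 bases, where 12.4% of genes had every KO library above and the median log2 fold change was 0.01.

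A correction that removes the trend with transcript length and GC content in each library was therefore applied to all genes. After it, the log2 fold change was 0.46 for Rbfox1 (SE 0.13, limma adjusted p = 0.253), 0.20 for Rbm24, 0.20 for Mbnl2 and 0.11 for Rbm20. Rbfox2 and Celf2 came to 0.07 each, Celf1 to 0.05 and Mbnl1 to 0.01, while Srsf5 was 0.09 and Clk1 -0.12. Without the library labelled KO replicate 2, the corrected values were 0.61 for Rbfox1, 0.31 for Rbm24, 0.26 for Mbnl2 and -0.18 for Clk1. The members' median became 0.08 with all libraries, beside 0.01 for all genes. Every KO library stayed above every WT library for 2 members, Rbfox1 and Rbfox2, where 11.2% of all genes were above in this way and 10% below. On the corrected log2 scale, Rbfox1 was at 11.36, 10.81 and 11.13 in KO replicates 1, 2 and 3 and at 10.66, 10.53 and 10.72 in the WT replicates, so that the library labelled KO replicate 2 stood nearest to the WT values. Rbfox2 was at 12.27, 12.27 and 12.23 in KO and at 12.22, 12.16 and 12.18 in WT, with the closest KO and WT libraries nearly equal.

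With the same correction, DESeq2 called 1 member, Rbfox1, with a log2 fold change of 0.48 (SE 0.13, adjusted p = 0.0215), beside 1.25% of genes called higher and 1.19% called lower. Limma called 0 members and 0 genes after the correction, with 1 member and 2312 genes at an unadjusted p under 0.05. The longest annotated transcripts of Clk1, Srsf5 and Mbnl2 are not coding. When length and GC content were taken from the longest protein-coding transcript instead, Rbfox1 was 0.45 with limma, and DESeq2 again called it alone of the members (adjusted p = 0.0219). With that choice, Mbnl2 was 0.27, Srsf5 0.20, Clk1 0.06 and Mbnl1 -0.0067.

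**Figure D3:**
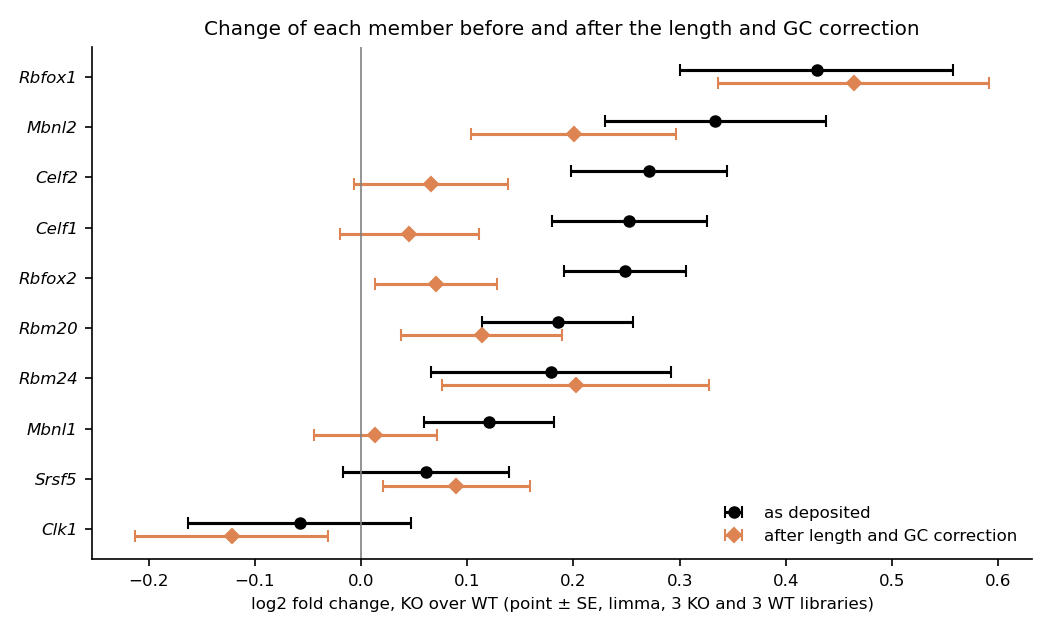
The log2 fold change of KO over WT (horizontal axis, point ± SE from limma) of each member as deposited (black circles) and after the length and GC correction (orange diamonds). Rbfox1 stays at 0.43 and 0.46, whereas Celf1, Celf2, Mbnl1 and Rbfox2 move to between 0.01 and 0.07.

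Because scaling between libraries cancels within a library, each member's share of a pair of relatives was also compared, per kilobase of merged exons. The trend with transcript length does not cancel in this way, and the shares were not corrected for it. For Rbfox1 and Rbfox2, for example, the limma log2 fold changes were 0.43 and 0.25 as deposited and 0.46 and 0.07 after the correction. Mbnl1 made up 26.6%, 30.8% and 30.6% of Mbnl1 plus Mbnl2 in KO replicates 1, 2 and 3, and 32.4%, 33.2% and 31.6% in the WT replicates. All KO libraries were below all WT libraries, and the means were 29.3% ± 2.36 and 32.4% ± 0.817 (SD, n = 3 each), a difference of -3.11 percentage points (exact two-sided permutation p = 0.1, 0.4 after Benjamini-Hochberg adjustment over the 4 pairs). Without KO replicate 1 the difference was -1.75 points.

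Rbfox1 made up 46.7%, 38.4% and 45.6% of Rbfox1 plus Rbfox2 in KO and 41.0%, 38.3% and 42.3% in WT. These shares overlapped, with the library labelled KO replicate 2 among the WT values, and the exact permutation p was 0.3. The difference was 3.08 percentage points with all libraries. Without the library labelled KO replicate 2 it was 5.66 points, and the remaining KO shares were above every WT share. Celf1 made up 88.4% ± 1.15 of Celf1 plus Celf2 in KO and 88.6% ± 0.439 in WT (SD, n = 3 each, exact permutation p = 0.9). For Clk1 of Clk1 plus Clk4, the shares were 54.0% ± 1.02 and 54.6% ± 0.365 (SD, n = 3 each, exact permutation p = 0.4). With all libraries, the 3 pairs other than the MBNL pair therefore differed by less than, or about as much as, the spread between replicates.

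**Figure D4:**
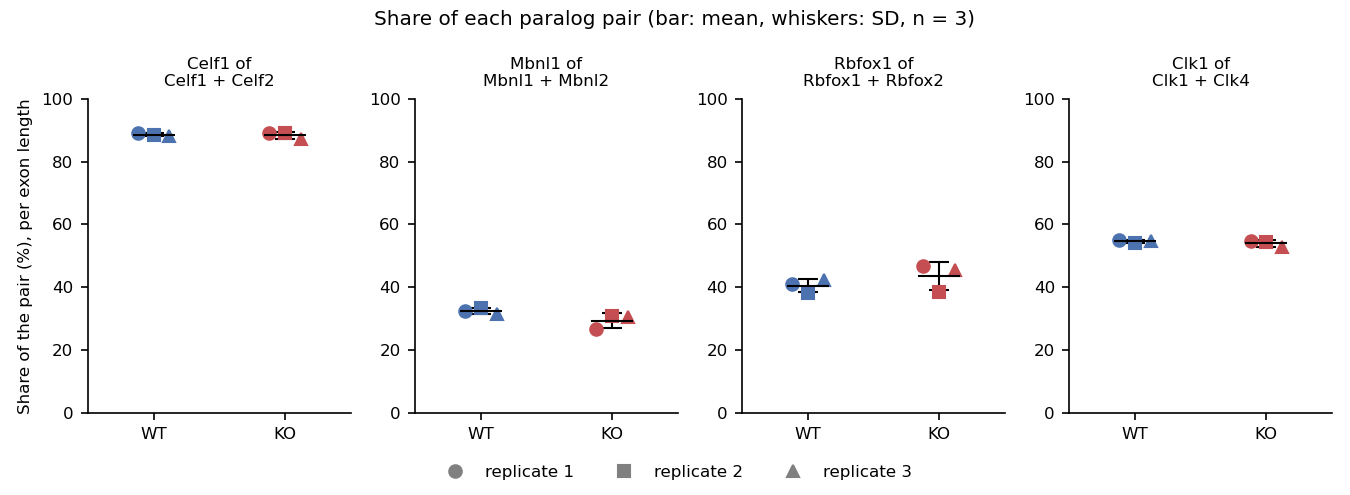
Share of a pair of relatives held by the first-named gene (percent, vertical axis from 0 to 100) in each WT (blue) and KO (red) library, with a bar for the mean and whiskers for the SD. The Mbnl1 share is 29.3% in KO and 32.4% in WT without overlap, and the shares of the other 3 pairs overlap.

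Relatives of the members that could be tested numbered 7 of 10, and their log2 fold changes were mostly small. Rbm38, the relative of Rbm24, was at -0.08, and the kinases Clk2, Clk3 and Clk4 were at -0.16, -0.09 and -0.02. Every KO library was below every WT library for Clk2 alone of the 7. Celf3, Celf4 and Mbnl3 had means of 24.2 normalized counts or fewer in each group, so that their values of 0.70, 0.12 and 0.03 rest on few reads, with SEs of 0.47, 0.46 and 0.25. None passed limma, edgeR or DESeq2, although DESeq2 gave no adjusted p for the last 3. Celf5, Celf6 and Rbfox3 were not listed.

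SR proteins, the family of Srsf5, lay on the other side of 0 from most members. Of 12 tested, 2 were higher in KO (Srsf4 at 0.07 and Srsf5 at 0.06) and 10 were lower, with a median log2 fold change of -0.21 that was -0.20 after the length and GC correction. In 8 of the 12, every KO library was below every WT library, beside 14.6% of all genes, and in 7 after the correction, beside 10%. Both SR proteins that were not lower in KO, Srsf5 among them, had overlapping groups. The lowest was Srsf7, at 1752 ± 57.9 normalized counts in KO and 2224 ± 346 in WT (SD, n = 3 each), with a log2 fold change of -0.33.

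Limma called 0 of the 12 SR proteins. At an unadjusted p under 0.05 it gave 7 of the 12 as lower, beside 1681 of the 16016 genes. Without WT replicate 1 it gave 4, beside 1034 genes, and the list's median log2 fold change was -0.15. Without WT replicate 2 it gave 8, beside 1585 genes, and the median was -0.27. DESeq2 called Srsf10, Srsf3, Srsf7 and Srsf2 lower (adjusted p = 0.00731, 0.0180, 0.0309 and 0.0354), beside 5.03% of genes. After the length and GC correction DESeq2 called Srsf10 alone (adjusted p = 0.0492), beside 1.19% of genes called lower. It called 2 SR proteins lower when the correction used the longest protein-coding transcript, beside 111 of the 16016 genes. Without the library labelled KO replicate 2 it called 2 lower, uncorrected, beside 404 of the 11048 genes with an adjusted p. Among the 9 kinases of SR proteins, which include Clk1, 2 were higher and 7 lower. Dyrk1a was the highest at 0.29 (DESeq2 adjusted p = 0.0289, 0.493 after the correction), and Clk2 the lowest at -0.16.

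**Figure D5:**
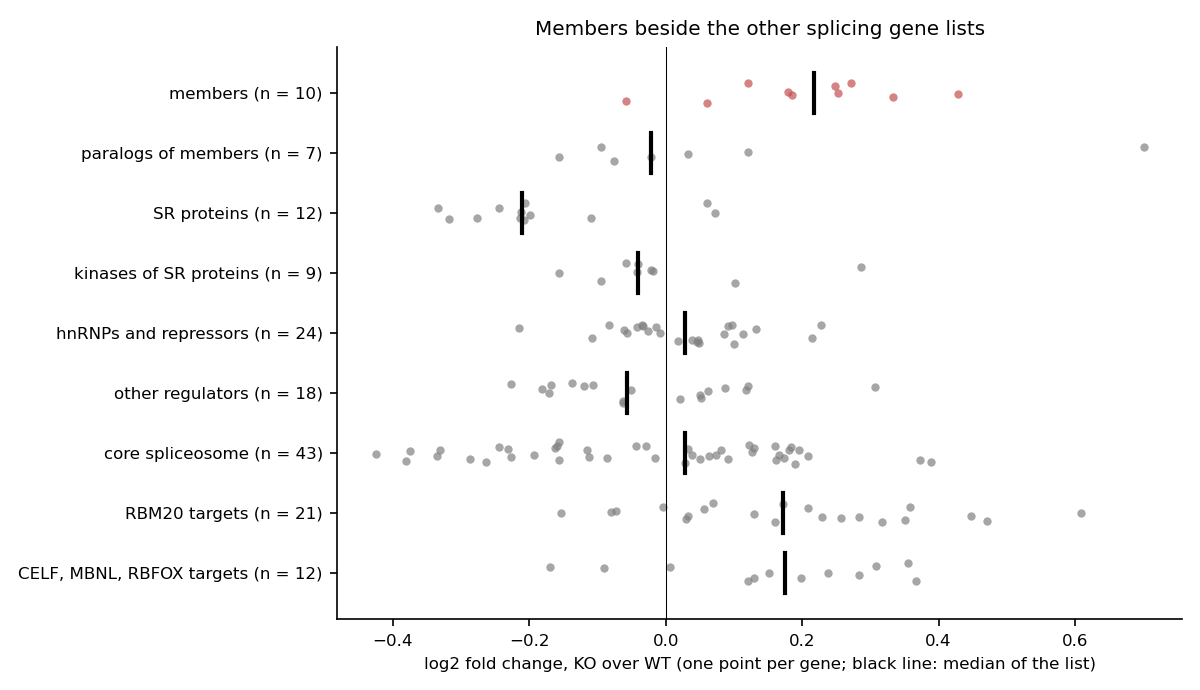
The log2 fold change of KO over WT (horizontal axis) of every gene tested in 9 lists, one point per gene with a black line at the list's median and the members in red. The members' median is 0.22 and that of the SR proteins -0.21, while the other regulators and the core spliceosome are centred near 0.

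Other splicing genes were spread on both sides of 0. Of 24 hnRNP proteins and other repressors, which bind pre-mRNA and often oppose SR proteins, 13 were higher and 11 lower, with a median of 0.03 and extremes of 0.23 (Hnrnpul1) and -0.21 (Hnrnph1). Of 18 further regulators expressed in muscle, 8 were higher and 10 lower, from 0.31 for Qk to -0.23 for Tia1. DESeq2 called Qk of these 18 (adjusted p = 0.0195), and after the length and GC correction Qk was at 0.11 and not called (adjusted p = 0.593), whereas Tardbp, at -0.18 as deposited and -0.36 after the correction, was called lower (adjusted p = 0.0238). Tardbp was again called lower by DESeq2, at -0.36, when the correction used the longest protein-coding transcript. On KO replicates 1 and 3, DESeq2 was run only without the correction and called 0 of the 18. The corrected Tardbp call was therefore not examined without the library labelled KO replicate 2. Of 43 core spliceosome genes, 22 were higher and 21 lower, from 0.39 for Prpf8, a large U5 component, to -0.42 for Snrpf, a small Sm protein. DESeq2 called 2 of them higher and 4 lower, beside 8.22% and 5.03% of genes, respectively. After the length and GC correction it called 0 higher and 1 lower, beside 1.25% and 1.19%. The cold-inducible proteins Cirbp and Rbm3 were at 0.25 and -0.17, and limma called no gene of any of these lists.

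Transcripts that the members are known to splice were compared at gene level only. Of 21 known targets of RBM20, 17 were higher in KO and 4 lower, with a median log2 fold change of 0.17. After the length and GC correction, 14 were higher and 7 lower, with a median of 0.07. Ryr2, the calcium release channel of the sarcoplasmic reticulum, was the highest at 0.61 as deposited, and Tpm1 the lowest at -0.15. After the correction Ryr2 was at 0.32, and Ttn, which encodes titin, was the highest at 0.35. DESeq2 called 7 of the 21 higher, beside 8.22% of genes, and 0 after the correction, beside 1.25%. Of 12 known targets of CELF, MBNL or RBFOX proteins, 10 were higher and 2 lower, and Bin1, a membrane-shaping protein of the T-tubules, was the lowest at -0.17. Their median was 0.17 as deposited and 0.14 after the correction, with 10 of 12 higher both times. Without the library labelled KO replicate 2, limma had 9 higher and 3 lower, both uncorrected and corrected. Atp2a1, counted as higher with all libraries, had 38.7, 641 and 99.3 normalized counts in KO replicates 1, 2 and 3. In the WT replicates it had 95.3, 93.6 and 170. Of the skeletal muscle markers tested, Myh1, Tnnt3, Tnni2, Actn3 and Mylpf were also highest in the library labelled KO replicate 2. Myh2 was highest in WT replicate 3 and Ckm in KO replicate 1. Tnnt3, for example, had 11.9, 802 and 60.3 in KO and 122, 65.5 and 188 in WT. The part of skeletal muscle in the results was not tested. DESeq2 called 4 of these 12 higher as deposited and 0 after the correction, beside the same 8.22% and 1.25% of genes. Limma called 0 in both lists. The median longest transcripts of the lists were 5409 and 4332 bases, respectively.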

How the data were processed

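RNAseq of 6 mouse hearts, 3 KO and 3 WT, was analysed from the table the authors deposited, whose values are a normalized signal (reads counted on a gene, scaled per library by a size factor). The submitters' processing notes name Trimmomatic 0.36, STAR 2.5.2b, featureCounts of Subread 1.5.2, DESeq2 and GRCm38, with no strand setting and no annotation release. The lowest gene mean was 9.89. Groups and replicate numbers came from the labels, and 0 value columns were left unmatched. Dividing by what 1 read is worth gave whole numbers within 0.01 read for 100% of values in every library, and count tests were run on these recovered reads. The p-values measure the spread between these samples, which may in part be technical.

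Symbols were matched for 15980 of 16018 identifiers in GENCODE M21, chosen here, which also gave positions, lengths and GC content (length known for 99.8%). The main comparison used limma 3.58.1 in R 4.3.3, with a trended variance. Its input was the log2 of the normalized count plus 1 for the 16016 genes averaging 10 or more, and p-values were two-sided and adjusted by Benjamini-Hochberg, with calls at 0.05. edgeR 4.0.16 and DESeq2 1.42.0 on recovered reads were alternatives. The length and GC correction subtracted from each library splines of 5 degrees of freedom in log2 length and GC content. The procedures were tested on simulated data. Named genes are the members, Slc4a4, the tested relatives and, of each list, the genes with the highest and lowest fold change. SR proteins called by DESeq2, Tardbp, Ttn and the skeletal muscle markers were named after their values were seen. For 1 list, the gene with the highest fold change is not reported here. The members and lists were chosen with earlier results of these data known. Same-numbered KO and WT libraries did not deviate together in all pairs, so that the numbers were not treated as pairs.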

Additional observations from a re-analysis of the deposited data

How the results depend on the processing

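Under 23 alternative settings the 10 members gave 230 fold changes, of which 211 kept their direction and side of the threshold, 11 passed the threshold and 8 changed sign, and the cause of these changes was not tested. The members called numbered 5 with DESeq2, 1 with DESeq2 after the length and GC correction by either transcript and 4 with DESeq2 on KO replicates 1 and 3, and 0 under every other setting. Genes called were 1587, 345, 273 (coding transcript) and 1195 in those settings, 2 with limma after correction on KO replicates 1 and 3, and 0 to 3 when 1 library was left out, 3 being without the library labelled KO replicate 2. The members' median of 0.22 became 0.14 after rescaling to the same total, 0.080 after the correction with or without the replicate block, 0.081 with DESeq2 after it, 0.080 and 0.081 by the coding transcript, and 0.11 corrected on KO replicates 1 and 3. With 1 library left out, the median ran from 0.16 without KO replicate 1 to 0.25 without KO replicate 2. Members above every WT library fell from 7 to 2 after the correction. The settings on KO replicates 1 and 3, the coding transcript, the shares, the SR protein median and the members above every WT library were chosen after seeing the data.

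Sign changes were as follows. Srsf5 became -0.012 after rescaling and ran from -0.00043 to 0.11 when 1 library was left out. In the same way Clk1 ran from -0.12 to 0.045, and it became 0.065 with limma and 0.064 with DESeq2 by the coding transcript, where Mbnl1 became -0.0067 and -0.0070. Of the relatives, Mbnl3 became -0.036 after rescaling, -0.017 after the correction with or without the block, -0.022 with DESeq2 after it, -0.054 to 0.12 with 1 library left out, -0.065 and -0.020 (limma corrected and DESeq2) on KO replicates 1 and 3, and -0.042 and -0.047 by the coding transcript. Rbm38 became 0.027 after the correction with or without the block, 0.028 with DESeq2 after it, -0.22 to 0.062 with 1 library left out, 0.066 corrected on KO replicates 1 and 3, and 0.043 and 0.045 by the coding transcript. Clk4 became 0.0037 after the correction with or without the block, 0.0042 with DESeq2 after it, -0.076 to 0.081 with 1 library left out, and 0.084 and 0.083 by the coding transcript. Celf4 ran from -0.26 to 0.45 with 1 library left out and became -0.29 and -0.37 on KO replicates 1 and 3. Srsf4 became -0.0011 after rescaling, and Bin1 ran from -0.28 to 0.013 with 1 library left out.

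The replicate block called 0 genes and 0 members, with 3924 genes and 7 members at an unadjusted p under 0.05, and changed no call. Same-numbered libraries correlated at 0.23, 0.072 and -0.029 in their deviations from the group means. Pairs with unlike numbers ran from -0.18 to 0.15. Whether same-numbered libraries share a batch cannot be told from these values. Each member had at least 1417 reads in every library, whereas Celf3, Celf4 and Mbnl3 had few reads.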
